A study of Homo sapiens with 6 samples.

Results

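IL6, IL11 and LIF are cytokines of the interleukin-6 family, and their mRNA was examined here in retinal pigment epithelium (RPE) cells in which the m6A methyltransferase METTL3 had been silenced. The 3 genes are 3 of 7758 in the deposited table and were found in it by their gene names. They were chosen by their measured levels in the same 6 libraries that are described below, so their own differences between the groups are given as a description, with no test. ARPE-19 cells, a human RPE line, carried either a lentiviral short hairpin against METTL3 (sh-METTL3, labelled METTL3 knockdown) or a scramble hairpin (sh-Control). All of them received LPS, a bacterial cell wall product, at 1 μg/ml for 24 h, so these libraries hold no cells without LPS and no effect of LPS can be read from them. Each group had 3 libraries, and mRNA was sequenced from the extracted RNA. The lines were selected as stable transformants after infection, and the labels do not say whether replicates within a group were infected or cultured separately, so p-values measure only the spread between these libraries.

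Cytokines of this family signal through gp130, a receptor chain that they share and that the gene IL6ST encodes. IL-6 and IL-11 first bind a receptor of their own, IL6R or IL11RA, and the complex then joins gp130 chains. LIF instead brings gp130 together with LIFR. In each case JAK kinases bound to the receptors phosphorylate STAT3, and SOCS proteins, which STAT factors induce, shut the signal down. RPE cells are a known source of IL-6 in ocular inflammation, and LIF is known in the retina for protecting photoreceptors.

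The table lists only genes that the authors had already called different between the groups, 33.8% of the genes they tested. It cannot be used to say that an unlisted gene did not differ. Adjusted p-values given below for listed genes repeat a selection made on the same libraries and are no independent support. Values are scaled counts, that is, reads of a gene divided by 1 size factor per library. Between 10898434 and 17750052 reads per library fell on listed genes, and the full depth of the libraries is unknown. METTL3 itself, the targeted gene, stood at 1154, 1108 and 1091 in sh-Control replicates 1, 2 and 3 and at 966, 1001 and 765 in sh-METTL3 replicates 1, 2 and 3, which is 18.5% lower on average (limma adjusted p 0.032). METTL3 did not pass when any 1 control library was left out, and it passed when any 1 sh-METTL3 library was left out. Without sh-METTL3 replicate 3 its log2 fold change moved from -0.30 to -0.18. It passed in edgeR and DESeq2 with the size factors of the deposited values. It did not pass in edgeR with TMM or RLE factors, nor in limma without an intensity trend. The study reported lower METTL3 protein and m6A in its METTL3-silenced ARPE-19 cells. The first principal component (89.8% of the variance) parted the groups, which the preselection of the genes fixes beforehand, while the second (3.36%) set sh-METTL3 replicate 3 apart. Of 14 RPE markers 6 were listed, and their summed scaled count ran from 18748 to 20001 in sh-Control and from 29908 to 33192 in sh-METTL3. That sum is mostly the keratins KRT8 and KRT18, which with MITF were called higher, whereas SERPINF1 (log2 fold change -3.04), PMEL (-1.80) and BEST1 (-1.73) were called lower, and the median of the 6 was -0.66. Of 8 fibroblast markers 4 were listed, all called lower, with sums from 11364 to 13232 and from 4730 to 5383. Nearly every gene in the table was called, 46.6% higher and 51.3% lower, so a call alone does not set a marker apart. Of 8 leukocyte markers 3 were listed, with sums from 170 to 211 and from 157 to 187, although the members differed in direction. CD14 (25.3 and 1.31) and ITGAM (85.0 and 9.85) were called lower and CSF1R (79.9 and 159) higher, and CD14 was at 0 in sh-METTL3 replicate 2. None of 5 endothelial markers was listed. RPE65 and RLBP1, which define mature RPE, were not analysed here because they are not listed. The part of these markers in the results below was not tested.

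The regions just before the start sites of IL6 and IL11 are shown first, because factors that act there were themselves measured in these libraries. A window of 250 bases before and 50 after the start was taken from RefSeq on GRCh38.p14, where 2 of the 3 genes matched (IL6 and IL11). No promoter is printed for LIF. The IL6 window is chr7:22726950-22727249 on the plus strand and the IL11 window is chr19:55370414-55370713 on the minus strand. Both are written 5′ to 3′ along the gene, and capitals mark every match to 5 short motifs on either strand.
IL6: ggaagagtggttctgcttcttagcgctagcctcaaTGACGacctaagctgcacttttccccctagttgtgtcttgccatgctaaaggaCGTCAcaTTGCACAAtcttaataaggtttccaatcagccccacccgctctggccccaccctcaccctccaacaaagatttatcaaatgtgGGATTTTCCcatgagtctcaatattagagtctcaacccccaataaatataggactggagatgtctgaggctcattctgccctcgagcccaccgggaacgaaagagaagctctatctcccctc
IL11: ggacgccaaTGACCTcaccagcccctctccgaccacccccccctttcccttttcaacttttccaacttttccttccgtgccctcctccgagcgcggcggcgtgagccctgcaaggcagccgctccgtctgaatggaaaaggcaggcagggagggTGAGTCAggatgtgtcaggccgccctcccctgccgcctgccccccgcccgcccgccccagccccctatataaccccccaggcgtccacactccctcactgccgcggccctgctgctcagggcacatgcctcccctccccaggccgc
The motifs were GGANTTTCC for NF-kB, TGANTCA for AP-1, TTGCNNAA for C/EBP, TGACG for the core of the site of CREB and ATF factors, and AGGTCA for the core of the site of COUP-TF receptors, the class to which NR2F1 belongs. No match overlapped another. IL6 held 1 NF-kB match that began 72 bases before the start, 1 C/EBP match at 155 bases, and CREB core matches at 162 and 215 bases. IL11 held an AP-1 match at 96 bases and a COUP-TF core match at 241 bases. Of 35116 promoter windows, 1.64% held the NF-kB letters, 7.71% AP-1, 10.5% C/EBP, 24.6% the CREB core and 13.8% the COUP-TF core. A match is a run of letters and not a measured binding site. The start site used for IL11 is the one in the table, whereas that of IL6 lies 1316 bases inside the gene as the table annotates it.

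IL11, a cytokine that promotes fibrosis and blood platelet formation, was lower in sh-METTL3 by a wide margin. IL11 (ENSG00000095752) lies on the minus strand of chromosome 19 from 55364389 to 55370463 (GRCh38), and its longest coding transcript has 5 exons. Its scaled count was 2224, 2327 and 1909 in sh-Control replicates 1, 2 and 3, and 109, 113 and 116 in sh-METTL3 replicates 1, 2 and 3. The lowest control library was 16.4 times the highest sh-METTL3 library. The means were 2153 ± 218 and 113 ± 3.66 (SD, n = 3 each), so the level was 94.8% lower in sh-METTL3, and the fitted log2 fold change was -4.24 (SE 0.093). These values rest on 2042 to 2788 reads per control library and 88 to 117 reads per sh-METTL3 library. Counting error alone is about 9.25% to 10.7% at the lower depth, more than the 3.24% by which the sh-METTL3 libraries varied.

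IL6, the founding cytokine of the family and a driver of acute-phase and T cell responses, was lower to a lesser degree. IL6 (ENSG00000136244) lies on the plus strand of chromosome 7 from 22725884 to 22732002, with 6 exons in its longest coding transcript. Its scaled count was 673, 587 and 541 in sh-Control replicates 1, 2 and 3, and 323, 299 and 188 in sh-METTL3 replicates 1, 2 and 3. The groups did not overlap, although sh-METTL3 replicate 3 lay well under the other libraries of its group. The means were 601 ± 67.0 and 270 ± 71.9 (SD, n = 3 each), a level 55.0% lower in sh-METTL3, and the fitted log2 fold change was -1.18 (SE 0.182). Without sh-METTL3 replicate 3 the level was 48.2% lower and the log2 fold change -0.94. IL6 was the most variable of the 3 cytokines, with a coefficient of variation of 11.2% in sh-Control and 26.6% in sh-METTL3, against counting errors of 3.44% to 7.72%. These values are mRNA and not secreted protein. The study reported more IL-6 protein secreted by METTL3-silenced ARPE-19 cells, above all with LPS, the opposite direction to this mRNA. Why mRNA and protein differ was not tested.

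LIF, which holds stem cells undifferentiated and supports neurons, was only slightly lower. LIF (ENSG00000128342) lies on the minus strand of chromosome 22 from 30240447 to 30246851, with 3 exons. Its scaled count was 9441, 10244 and 9881 in sh-Control replicates 1, 2 and 3, and 7839, 8647 and 7844 in sh-METTL3 replicates 1, 2 and 3. The groups did not overlap, but the lowest control library was just 1.09 times the highest sh-METTL3 library. The means were 9855 ± 402 and 8110 ± 465 (SD, n = 3 each), 17.7% lower in sh-METTL3, with a fitted log2 fold change of -0.28 (SE 0.059). LIF is read deeply, with 6710 to 11835 reads per library and a counting error of at most 1.22%. With RLE size factors, computed from the listed genes alone, the value for LIF was -0.16. The median of all listed genes then shifted upward by 0.123 on the log2 scale.

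**Figure D1:**
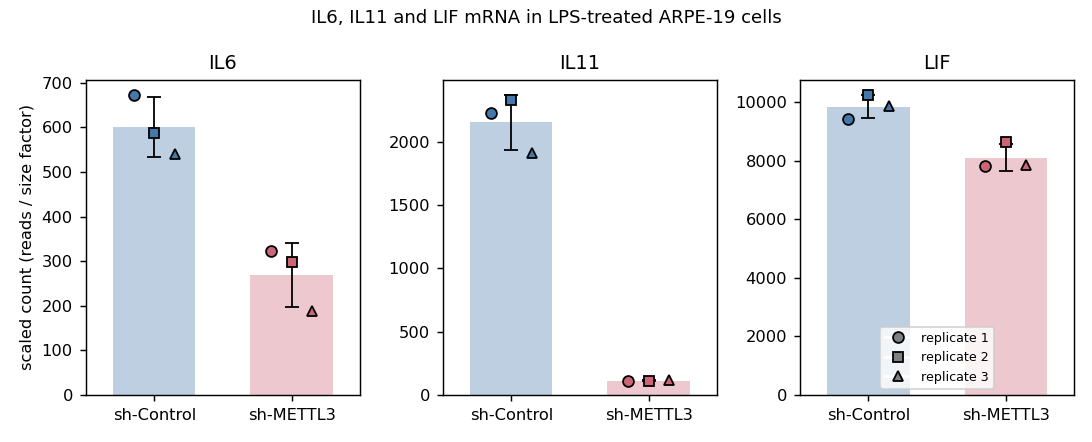
Scaled counts (reads divided by size factor) of IL6, IL11 and LIF in each library, with bars for the group mean, error bars for the SD and a marker for each replicate number. The bars stand at 2153 and 113 for IL11, at 601 and 270 for IL6 and at 9855 and 8110 for LIF, and the points of the groups do not overlap in any panel.

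All 3 cytokines had non-overlapping libraries, as did 98.5% of listed genes, and the rule by which they were chosen used this contrast, so nothing is read from that count. Among 4054 listed genes with a negative log2 fold change, ordered from the most negative, IL11 ranked 42, IL6 819 and LIF 3430. The absolute change was larger than that of 98.9% of listed genes for IL11, of 75.0% for IL6 and of 13.0% for LIF. In control level the order was another one: LIF lay above 97.1% of listed genes, IL11 above 81.5% and IL6 above 50.5%.

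**Figure D2:**
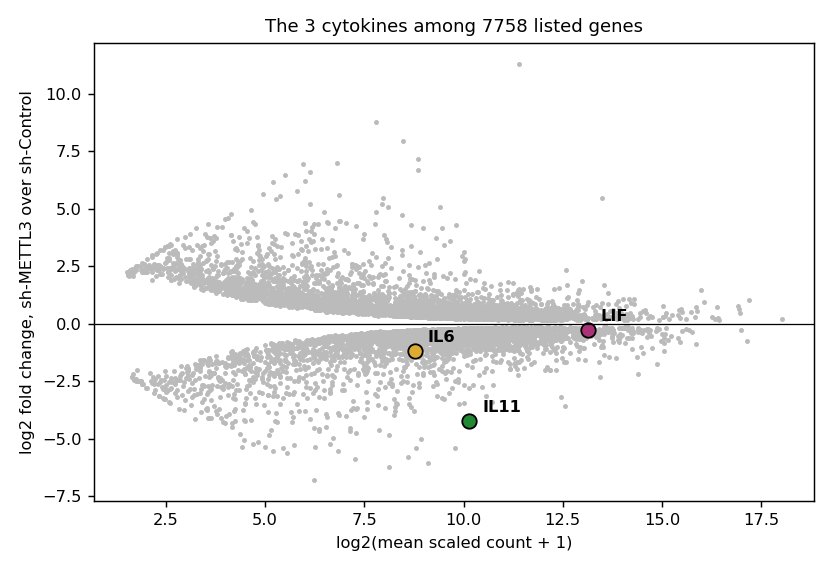
Fitted log2 fold change of sh-METTL3 over sh-Control against log2 of the mean scaled count plus 1 for 7758 listed genes (grey), with the 3 cytokines marked. IL11 lies at -4.24, below nearly all genes of its level, IL6 at -1.18 and LIF at -0.28 beside the empty band around 0 that the preselection of the table leaves.

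Levels of different genes were compared per kb of exon. In the control libraries LIF had 2483 ± 101, IL11 806 ± 81.6 and IL6 290 ± 32.4 scaled counts per kb (SD, n = 3 each). In sh-METTL3 LIF had 2043 ± 117, IL6 130 ± 34.7 and IL11 42.3 ± 1.37 scaled counts per kb (SD, n = 3 each). LIF thus led in all 6 libraries, while IL11 stood above IL6 in all 3 control libraries and below it in all 3 sh-METTL3 libraries. The ratio of IL11 to IL6 per kb ran from 2.56 to 3.07 in sh-Control and from 0.262 to 0.48 in sh-METTL3. The ratio of LIF to IL11 per kb ran from 2.86 to 3.48 and from 45.3 to 51.3. Of the summed level per kb of the 3 mRNAs, IL11 made up 20.6% to 23.5% in sh-Control and 1.79% to 2.07% in sh-METTL3, and LIF 67.3% to 71.8% and 90.9% to 93.6%. With the length of the longest coding transcript in place of all exons the order was the same, with 944 for IL11 and 393 for IL6 in sh-Control and 49.5 and 177 in sh-METTL3. In bulk RNA, fewer cells that make a cytokine and less mRNA per cell cannot be told apart.

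**Figure D3:**
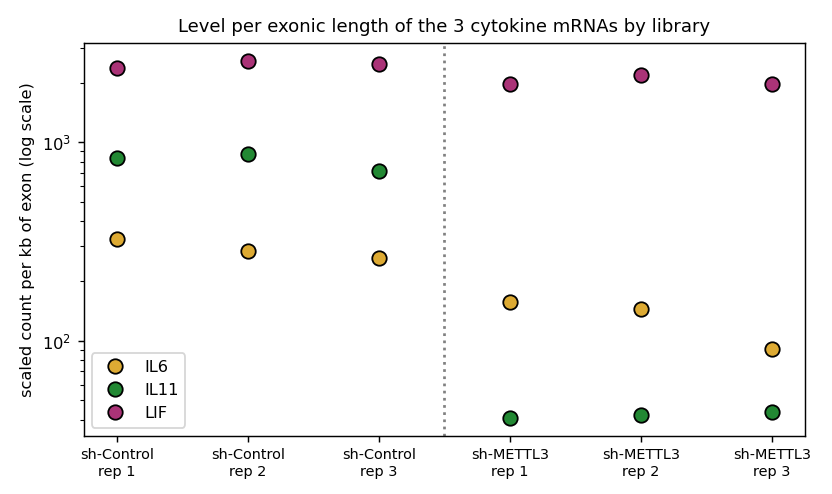
Scaled count per kb of exon (log axis) of LIF, IL11 and IL6 in each of the 6 libraries, with the groups parted by a dotted line. LIF is uppermost throughout, and IL11, above IL6 in every control library, is the lowest in every sh-METTL3 library.

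The 3 genes varied to different degrees within the groups. In sh-METTL3 replicate 3 the log2 level of IL6 was -0.48 from its group mean, that of IL11 0.043 and that of LIF -0.047. In sh-METTL3 replicate 2 all 3 lay above their group means, by 0.19 for IL6, 0.0055 for IL11 and 0.094 for LIF. In sh-Control replicate 3 the deviations were -0.14 for IL6, -0.17 for IL11 and 0.0046 for LIF. Genes with the most similar pattern were found by the distance between centred log2 levels over the 6 libraries, among 5725 protein-coding genes with a mean of at least 100. For IL6 they were LCP1, an actin-bundling protein (distance 0.12), MCM10, a DNA replication factor (0.21), and KNL1, a kinetochore scaffold (0.244). For IL11 they were MEIS3, a homeobox factor (0.347), BHMT2, a methyltransferase of methionine synthesis (0.492), and SIGLEC15, a sialic acid-binding receptor (0.754). For LIF they were LCAT, which esterifies cholesterol in plasma (0.0614), GADD45B, a stress-response protein (0.0703), and PHLDB1 (0.0726). The cytokines lay farther from one another, with distances of 1.27 between IL6 and LIF, 3.8 between IL6 and IL11 and 4.85 between IL11 and LIF. No cytokine was thus among the nearest genes of another, and these distances are a description in which the difference between the groups carries most of the weight.

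The transcripts were then compared by sequence features that played no part in the choice of the genes. The longest coding transcript of each gene in GENCODE release 29 was searched for GGACT, the commonest form of the sequence in which METTL3 methylates adenosine. LIF held 11 copies in 3969 bases (2.77 per kb), more per kb than 98.2% of 6736 listed coding genes. IL11 held 4 copies in 2281 bases (1.75 per kb), more than 87.2%, and IL6 held 1 copy in 1527 bases (0.655 per kb), more than 30.3%. The median of listed coding genes was 0.936 per kb. The 3′ untranslated regions were searched for ATTTA, the core of the AU-rich elements that mark short-lived cytokine mRNA. IL6 held 6 copies in 429 bases (14 per kb), more per kb than 99.7% of 6694 listed genes with such a region. IL11 held 9 copies in 1618 bases (5.56 per kb), more than 94.1%, and LIF held 7 in 3204 bases (2.18 per kb), more than 58.9%. No m6A was measured in these libraries, and a copy of a motif is not a modified base.

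Neighbouring genes were listed in both directions. Within 1 Mb on each side of IL11, 25 genes were listed, 14 with a positive and 11 with a negative log2 fold change (median 0.24). Of these 25 genes 22 are coding, where 76 coding genes are annotated. Of all 7758 listed genes 4054 were negative, with a median of -0.21, so these counts are read as no more than a description. FAM71E2, 1.13 kb away, had 12.2 ± 3.02 in sh-Control (SD, n = 3) and was listed at 0 in all sh-METTL3 libraries. COX6B2, the next listed gene at 9.58 kb, had 23.1, 18.3 and 18.7 in the control libraries and 0, 6.44 and 2.24 in the sh-METTL3 libraries, with a log2 fold change of -2.86 (limma adjusted p 0.00519). The 2 listed genes nearest to IL11 were thus lower, as IL11 was, at levels far under it. Both lie on the minus strand, as IL11 does, beyond its 3′ end. Whether their reads are separate from those of IL11 was not tested. RPL28, a ribosomal protein gene 14.9 kb away, had a log2 fold change of -0.30 (limma adjusted p 0.00639), and UBE2S, a ubiquitin-conjugating enzyme gene 29.3 kb away, one of 0.45 (limma adjusted p 0.0122). Around LIF, with 43 annotated coding genes, 12 genes were listed, 10 of them coding, 7 positive and 5 negative. Around IL6, with 15 annotated coding genes, 6 genes were listed, all coding, of which 2 were positive and 4 negative. AC004264.1, an antisense gene that overlaps LIF by 647 bases, was higher in sh-METTL3, at 179 ± 29.2 and 296 ± 12.8 (SD, n = 3 each; log2 difference 0.74, limma adjusted p 0.0018). STEAP1B overlaps IL6 by 1730 bases on the other strand and did not pass, with a log2 fold change of -0.68 and a limma adjusted p of 0.0696. Whether the counting used strand is not given in the sources used here, so reads in these overlaps cannot be assigned to one gene.

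Genes around the 3 cytokines were then examined in lists by role, 91 genes in 7 lists. Of these, 44 were listed, and 43 passed an adjusted p of 0.05 by limma (called), 11 of them higher in sh-METTL3 and 32 lower. Over all listed genes 97.9% were called, 46.6% higher and 51.3% lower, so that nearly every listed gene passes and only the direction can be compared. For the same reason the adjusted p-values of single genes in these lists are no independent support. The median log2 fold change of the 44 genes was -0.44, against -0.21 over all listed genes. All 44 had non-overlapping libraries, as did 98.5% of listed genes. Without sh-METTL3 replicate 3, 40 were called, 9 higher and 31 lower.

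Among the receptors of the family, IL6ST, which encodes gp130 itself, fell in sh-METTL3. Its scaled count was 6255, 5299 and 5451 in the control libraries and 3400, 3612 and 3782 in the sh-METTL3 libraries, a log2 fold change of -0.65 (SE 0.071, limma adjusted p 5.65e-05). LIFR, the chain that LIF requires, rose from 82.2, 94.2 and 65.4 in the control libraries to 223, 215 and 244 in the sh-METTL3 libraries, with a log2 fold change of 1.5 (SE 0.162). It nevertheless stayed far under gp130 per length, at 19.2 scaled counts per kb in sh-METTL3 against 387 for IL6ST. OSMR, the oncostatin M receptor chain, had a log2 fold change of -0.31 and IL27RA, the interleukin-27 receptor chain, one of -1.01, both called lower. The call of IL27RA held in all 15 alternative fits and that of OSMR in 11. Of the 8 receptor genes 4 were listed, 1 higher and 3 lower, with a median of -0.48. IL6R and IL11RA, the specific receptors of IL-6 and IL-11, are not listed and were not analysed here. Among 8 other ligands of the family 2 were listed. CTF1, which encodes cardiotrophin, rose from 169 ± 4.73 to 317 ± 28.3, and EBI3, the shared subunit of interleukin-27 and interleukin-35, fell from 80.6 ± 9.05 to 25.8 ± 3.99 (SD, n = 3 each).

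Of 12 JAK-STAT and adaptor genes 6 were listed, of which 5 were called lower and 1 higher, with a median log2 fold change of -0.31. The call of SHC1 held in just 3 of 15 alternative fits, that of SOS1 in 9 and that of STAT5B in 10. STAT3, the main transcription factor below gp130, had 3152, 3257 and 3184 in the control libraries and 2477, 2298 and 2468 in the sh-METTL3 libraries. The groups lay apart with little spread, and its log2 fold change was -0.41 (SE 0.052, limma adjusted p 0.000173). STAT5A fell more, from 352 ± 3.15 to 156 ± 18.5 (SD, n = 3 each), or -1.18 as a log2 fold change. GAB1, an adaptor of the MAPK branch, STAT5B and SHC1 had log2 fold changes of -0.38, -0.24 and -0.18, and SOS1, which activates RAS, one of 0.23.

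Of 15 inhibitors of the pathway 5 were listed, 4 higher and 1 lower, with a median of 0.31. SOCS2, a STAT-induced suppressor that acts mainly on growth hormone signals, rose from 116 ± 25.1 to 218 ± 3.02 (SD, n = 3 each). PIAS2, a SUMO ligase, and the phosphatases PTPN1 and PTPN6 had log2 fold changes of 0.42, 0.31 and 0.31, with calls that held in 15, 14 and 11 of 15 alternative fits. SOCS6 had one of -0.24, and its call held in 7 of 15 alternative fits. SOCS3, the inhibitor that binds gp130, is not listed and was not analysed here.

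Of 21 genes known to respond to STAT3, 7 were listed, 1 higher and 6 lower, with a median of -0.74. JUNB fell from 3621 ± 255 to 1893 ± 235, MYC from 6308 ± 217 to 3785 ± 176 and the survival gene MCL1 from 8531 ± 254 to 5580 ± 225 (SD, n = 3 each). PIM1, a kinase gene, had 1070, 1087 and 872 in the control libraries and 762, 563 and 460 in the sh-METTL3 libraries. SAA1, an acute-phase protein gene, had 110, 126 and 130 in the control libraries and 84.0, 67.0 and 20.2 in the sh-METTL3 libraries, and its call held in 9 of 15 alternative fits. VEGFA, the vascular growth factor gene, had 5960, 5400 and 5340 in the control libraries and 3659, 4055 and 4910 in the sh-METTL3 libraries. The library sh-METTL3 replicate 3 was thus the lowest of its group for PIM1 and SAA1 and the highest for VEGFA. HIF1A, the hypoxia factor, went the other way, from 14332 ± 793 to 25558 ± 2008 (SD, n = 3 each), or 0.83 as a log2 fold change. These genes answer to many other signals besides gp130.

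The factors that act on the cytokine genes were listed most fully, 14 of 17, with 2 higher and 12 lower and a median of -0.81. Of all tested genes 33.8% were listed, and of all listed genes 46.6% were called higher and 51.3% lower. The lists were written with earlier results of these data known, so these counts are a description. All 4 listed NF-kB subunits fell. NFKB1 had a log2 fold change of -1.0, RELB of -0.82, NFKB2 of -0.79 and RELA of -0.77. NFKBIA, their inhibitor, and NFKBIZ, a cofactor needed for IL6 transcription in many cells, had log2 fold changes of -0.31 and -0.72. Among AP-1 genes FOS had 333, 216 and 105 in the control libraries and 10.3, 11.6 and 12.3 in the sh-METTL3 libraries, a log2 fold change of -4.00 (SE 0.361, limma adjusted p 1.67e-05). The log2 fold change was -2.64 for FOSB, -1.75 for ATF3 and -1.20 for FOSL1, all called lower. EGR1, which is not an AP-1 gene, had one of -2.09 and was also called lower. JUN, the usual partner of the FOS proteins, stood at 7735 ± 482 in sh-Control and 9013 ± 728 in sh-METTL3 (SD, n = 3 each), or 0.22 as a log2 fold change, and its call held in 10 of 15 alternative fits. CEBPB, which binds the C/EBP sequence of the kind shown above for IL6, rose from 1992 ± 286 to 2779 ± 171 (SD, n = 3 each; log2 fold change 0.49), and CREB1 fell by 0.47. The control libraries of the immediate-early genes spread widely, with EGR1 at 1548, 916 and 503.

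Of 10 proteins that act on the stability of cytokine mRNA 6 were listed, 1 called higher, 4 called lower and 1 not called. ZC3H12A, which encodes the IL6 mRNA-cleaving enzyme Regnase-1, fell from 2618 ± 104 to 1491 ± 194 (SD, n = 3 each), or -0.82 as a log2 fold change. ZFP36, which encodes the AU-rich element binder tristetraprolin, fell from 224 ± 40.3 to 147 ± 19.3 (SD, n = 3 each), and its relative ZFP36L2 rose from 1062 ± 25.4 to 1442 ± 111 (SD, n = 3 each). ZFP36L1, the most abundant of the 3 relatives per kb in sh-METTL3, had a log2 fold change of -0.14 and did not pass (limma adjusted p 0.0877). RC3H2, which encodes Roquin-2, fell by 0.36 on the log2 scale. HNRNPD, which encodes AUF1, stood at -0.18 on that scale, and its call held in 5 of 15 alternative fits.

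**Figure D4:**
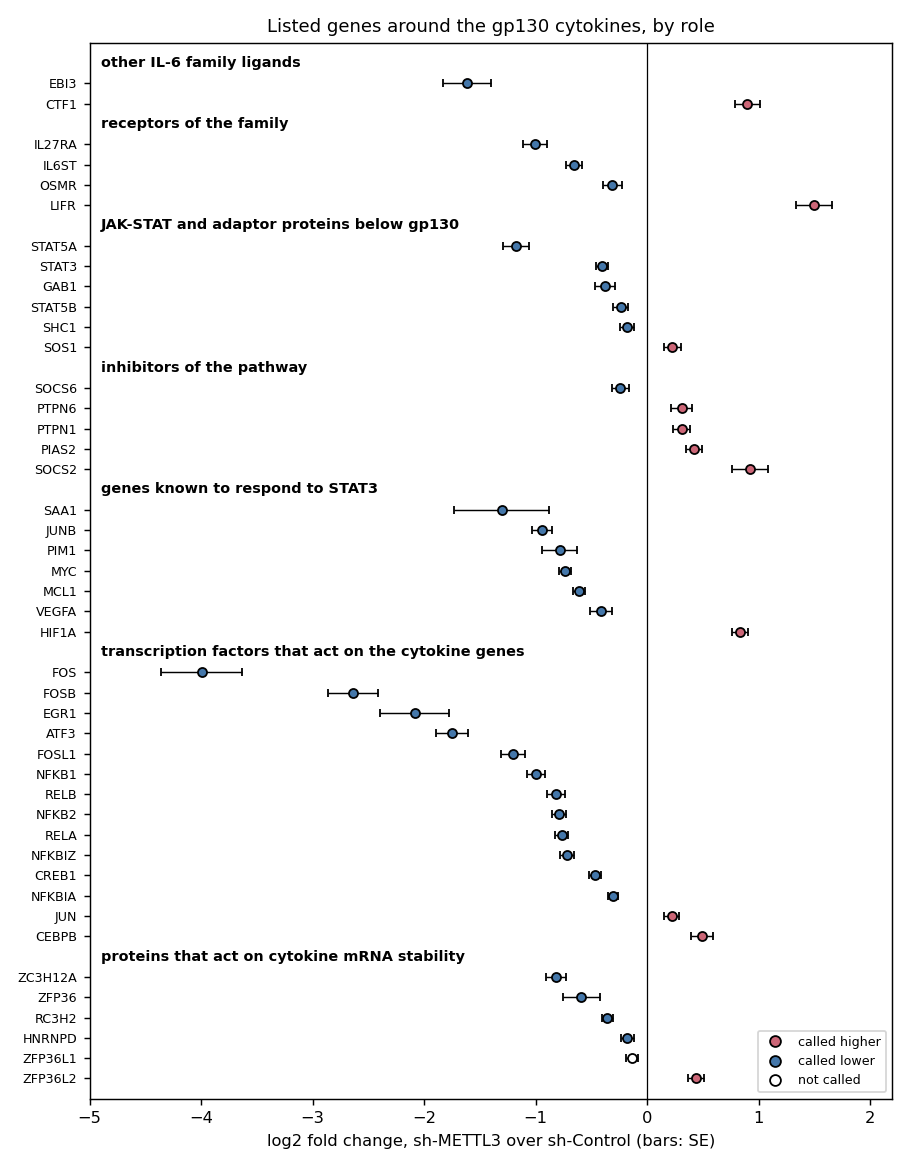
Log2 fold change of sh-METTL3 over sh-Control (points, bars give the SE) for the 44 listed genes of 7 lists, coloured by call. Points lie mostly left of 0 among the transcription factors (12 of 14) and STAT3-responsive genes (6 of 7), and right of 0 for 4 of 5 inhibitors. Over all listed genes 46.6% were called higher and 51.3% lower, and the lists were written with earlier results of these data known.

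No log2 fold change of the 44 genes changed sign in 15 alternative fits, but 14 of them changed side of the threshold in at least 1. These were GAB1, HNRNPD, JUN, OSMR, PTPN1, PTPN6, SAA1, SHC1, SOCS6, SOS1, STAT5B, VEGFA, ZFP36 and ZFP36L1. For the 3 cytokines the log2 fold change stayed between -4.32 and -4.13 for IL11, between -1.33 and -0.94 for IL6 and between -0.33 and -0.16 for LIF in 14 alternative fits. The value nearest to 0 came without sh-METTL3 replicate 3 for IL6 and with RLE size factors for IL11 and LIF.

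**Figure D5:**
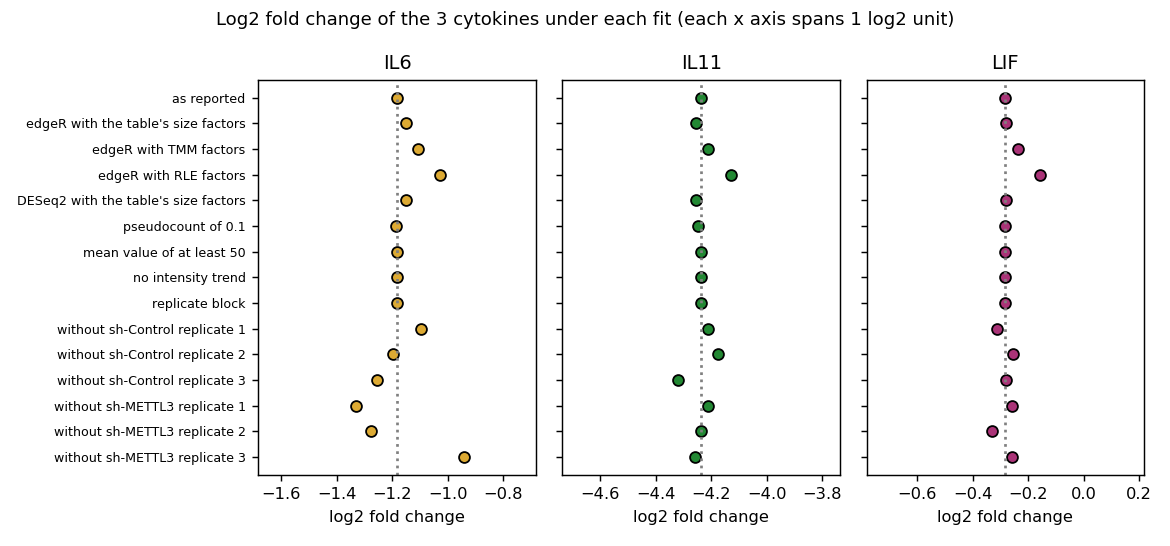
Log2 fold change of IL6, IL11 and LIF as reported (dotted line) and in 14 alternative fits, on x axes that each span 1 log2 unit. IL6 moves most, to -0.94 without sh-METTL3 replicate 3, and the ranges of the 3 genes do not meet.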

How the data were processed

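RNA was sequenced from 3 sh-Control and 3 sh-METTL3 libraries of LPS-treated ARPE-19 cells. The submitters' processing notes name HISAT2 2.0.5 and hg38. The methods of the study describe single-end HiSeq reads and Cufflinks. The read counter and strandedness are not given in the sources used here. The authors deposited in each library column a signal, that is, reads scaled by 1 size factor per library, and 100% of values came out as whole reads within 0.01 of a read. Further columns that the authors deposited hold means of each group, their own log2 fold change, and p-values before and after adjustment, the latter at most 0.05 for every gene. From the deposited p-value columns only the number of tested genes, 22977, was taken. Start and end of 7758 genes equal GENCODE release 29, and 13 symbols that had become dates were restored from it.

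limma 3.58.1 with an intensity trend (R 4.3.3) was fitted to log2 of the scaled count plus 1 over all 7758 genes, which understates the change of weakly expressed genes, with Benjamini-Hochberg adjustment over 22977 tests (unlisted genes taken as p of 1) and a threshold of 0.05. edgeR 4.0.16 and DESeq2 1.42.0 on recovered reads, another pseudocount, a filter, no trend, another adjustment, a replicate block and leaving out each library were alternatives. The limma fit and the edgeR fit with TMM factors were run on simulated counts as a check of the code alone. IL6, IL11, LIF and the gene lists were chosen with earlier results of these data known. Named genes were the 3 cytokines, METTL3, members of the lists and the 3 nearest profiles per cytokine. The overlapping genes AC004264.1 and STEAP1B and the 4 listed genes nearest to IL11 were named after their values were seen. The sequence motifs and the comparison with neighbouring genes were chosen after the values were seen. Genes not listed were not analysed.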

Additional observations from a re-analysis of the deposited data

How the results depend on the processing

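The preselection of the table on these libraries limits what other settings can show. The log2 fold changes of IL6 and IL11 moved by less than the spread between replicates in 14 alternatives, and that of LIF in all but one, edgeR with RLE size factors, where it was -0.16 against -0.28. The median of all listed genes moved by 0.123 under that scaling. TMM and RLE factors were computed from the listed genes alone, which had been preselected as different between the groups. The number of called genes in the 7 lists, 43, ran from 33 to 44 over 15 alternatives, with 8 to 11 higher and 24 to 33 lower. METTL3 (log2 fold change -0.30, adjusted p 0.032 by limma) did not pass with TMM factors (-0.25) or RLE factors (-0.17) in edgeR, nor in limma without the intensity trend (-0.30). With 1 library left out at a time it ran from -0.38 to -0.18, and it did not pass in those without sh-Control replicate 1, 2 or 3. The cause of these changes was not tested. Under the replicate block 42 genes of the lists were called, 11 higher and 31 lower, although libraries of equal number showed no shared deviation (r of 0.00361, 0.0193 and -0.015). The total depth is not known, and no detection limit is given for unlisted genes such as IL6R, IL11RA and SOCS3.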
